A study of Mus musculus with 4 samples.

Results

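The genes described here are 10 components of the Notch pathway, taken by symbol from the 32286 genes of the deposited feature lists. They are the receptors Notch1, Notch2, Notch3 and Notch4, the ligands Jag1 and Dll4, the target genes Hey1, Hey2 and Heyl, and Nrarp, a target whose product dampens the pathway. All 10 are listed for every library, and they were followed across lymphatic endothelial-like, blood endothelial-like, pericyte-like and muscle-like cells and across 3 kinds of muscle-like cluster. On the mouse genome build GRCm38 Notch3 lies at chr17:32120820-32166852, Notch4 at chr17:34564268-34588503, Dll4 at chr2:119325784-119335962, Hey2 at chr10:30832359-30842801 and Nrarp at chr2:25180758-25183339.

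The study used droplet 3' single-cell RNA sequencing, in which each RNA molecule carries a unique molecular identifier (UMI), on popliteal vessels of adult mice. Every mouse carried Wt1-driven GFP-Cre (WT1GFPCre) together with the Cre-dependent tdTomato reporter Ai9-tdT, so a cell expresses tdTomato where the Wt1 promoter is or was active, and no library came from mice without these alleles. The popliteal lymphatic vessel (PLV) libraries, 2 in number, held cells pooled from 2 mice apiece, with different mice in each, and were digested for 30 min with collagenase, Dispase, DNase and Liberase. The third library, called mixed here, held PLV cells and cells labelled BV (blood vessels) from 1 pool of 2 mice, digested for 60 min with collagenase and Dispase alone. All mice received 4% Evans blue in the footpad. Vessel, digestion time, enzymes and mice differ together between the PLV and the mixed libraries and cannot be told apart. The hashtags of the mixed library were not used, so it counts as 1 sample of both vessels.

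Notch receptors are activated by ligands on a neighbouring cell, after which the cleaved receptor tail enters the nucleus, binds the DNA-binding protein RBPJ and switches on genes of the Hes and Hey families. In vessels, DLL4, NOTCH1 and NOTCH4 are known from endothelium, where they take part in sprouting and arterial identity. NOTCH3 is known as the receptor of mural cells, the smooth muscle and pericytes around the endothelium, and JAG1 as a ligand that acts between endothelium and muscle and between muscle cells.

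After filtering, 1904 cells of PLV replicate 1, 516 of PLV replicate 2 and 994 of the mixed library remained, with 3390010 to 9435030 UMIs a library and a median of 3368 to 6162 UMIs a cell. No cell barcode was shared between libraries. The classes held 192, 71 and 53 lymphatic endothelial-like cells, 296, 67 and 174 blood endothelial-like cells, 427, 113 and 316 muscle-like cells and 133, 24 and 62 pericyte-like cells. Values below are given in this library order (PLV replicate 1, PLV replicate 2, mixed) as CPM, the gene's UMIs per 1000000 UMIs of the summed class. Each class carried its own markers: 9 of 9 muscle markers, 8 of 8 pericyte markers, 8 of 8 blood endothelial markers and 5 to 7 of 7 lymphatic endothelial markers had UMIs in every library. The lymphatic endothelial-like sums held 3121, 4049 and 1847 CPM of their own markers beside 3780, 3811 and 4235 CPM of the blood endothelial list, which was thus the higher in PLV replicate 1 and the mixed library. Blood endothelial-like sums held 40.2, 61.5 and 28.6 CPM of the lymphatic list. The pericyte-like sums held 8076, 8379 and 4784 CPM of their own markers. They also held 4108, 4959 and 4320 CPM of blood endothelial markers (24730, 26010 and 26500 CPM in blood endothelial-like cells). Their muscle markers stood at 11400, 6811 and 12080 CPM, above their own list in PLV replicate 1 and the mixed library. Classes and kinds were compared within libraries, so their p-values measure how far those differences varied between these 3 libraries only. The class tests estimate that variation with the fibroblast-like and Schwann-like sums as well. The tests of mixed minus PLV compare libraries.

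The first comparison set the endothelial classes against the mural classes. Of the 10 genes, 9 differed, against 41.7% of the 10500 genes tested. Notch1, Dll4 and Notch4 were higher in endothelium (3 genes, against 21.1% of all genes in that direction). Notch3, Hey2, Heyl, Jag1, Notch2 and Nrarp were higher in mural cells (6 genes, against 20.6%), while Hey1 did not pass. The second comparison set blood against lymphatic endothelial-like cells, where 7 of the 10 genes differed, against 21.5% of all genes tested. Notch4, Heyl, Notch3, Hey1, Nrarp and Jag1 were higher in blood endothelial-like cells (6 genes, against 11.7% of all genes in that direction). Notch2 was higher in lymphatic endothelial-like cells (1 gene, against 9.79%). Pericyte markers moved with this comparison. They stood at 1610, 714 and 907 CPM in blood and at 36.3, 9.66 and 7.24 CPM in lymphatic endothelial-like sums. The part of this RNA in the calls was not tested, and levels with such cells left out are given below.

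**Figure D1:**
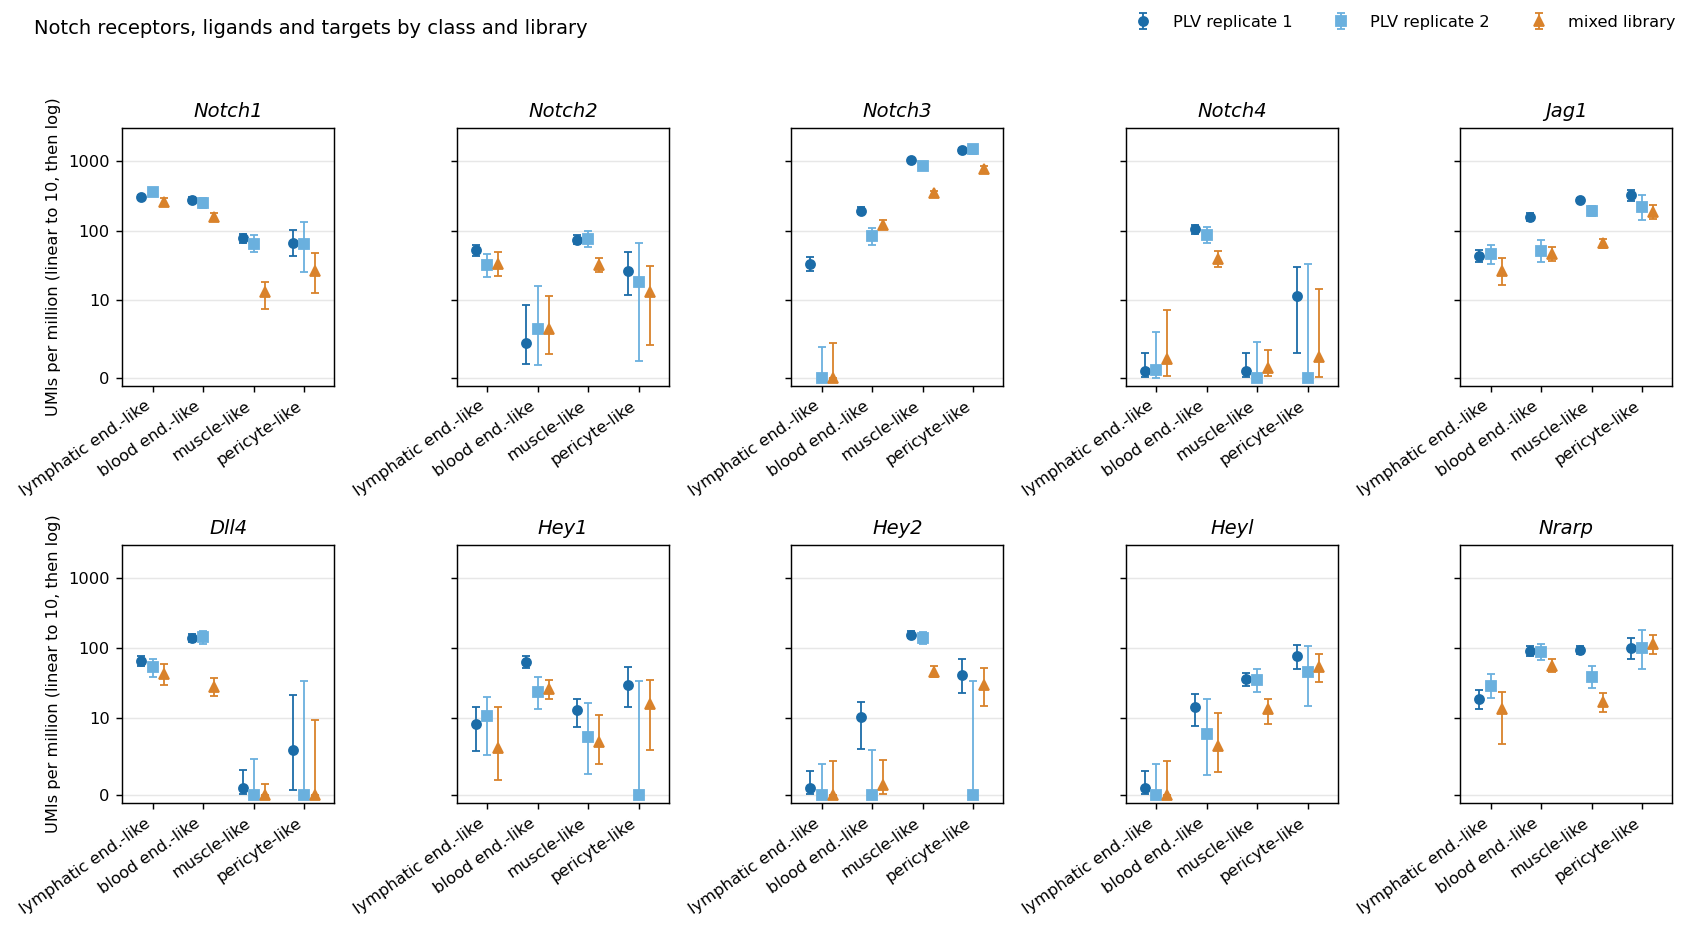
Summed level of each gene (CPM, linear to 10 and logarithmic above) in the 4 classes, with 1 point per library and its 95% Poisson interval. Notch1 and Dll4 lie higher in every endothelial sum than in any mural sum, Notch3 the other way round, and Notch4 is at most 11.8 CPM outside blood endothelial-like cells.

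Among the receptors, Notch1 was higher in the endothelium of both vessel types. It stood at 305, 355 and 259.5 CPM in lymphatic and at 278, 249 and 157 CPM in blood endothelial-like cells. Muscle-like cells had 78.3, 65.3 and 13.02 CPM and pericyte-like cells 67.6, 64.2 and 26.4 CPM of Notch1, so that every endothelial sum lay above every mural sum. The endothelial minus mural log2 fold change was 2.53 (SE 0.24, adjusted p = 3.85e-08 by edgeR's quasi-likelihood test). The endothelial classes overlapped in Notch1, and the blood minus lymphatic difference of -0.46 (SE 0.28, adjusted p = 0.301) did not pass.

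Notch4 was high in blood endothelial-like cells alone among the 4 classes. Blood endothelial-like cells had 104, 88.3 and 39.4 CPM, from 161, 56 and 62 UMIs, whereas lymphatic endothelial-like cells had 0.875, 1.07 and 2.41 CPM, from 5 UMIs in all. The groups did not overlap, the log2 fold change was 5.87 (SE 0.52, adjusted p = 6.95e-08), and the ratio of the pooled levels was 60.2 (95% exact binomial interval 25.5 to 187, counting error only). Muscle-like cells had 0.900, 0 and 1.22 CPM of Notch4, and pericyte-like cells 11.8, 0 and 2.64 CPM from 5 UMIs. The joint endothelial minus mural difference, which averages the low lymphatic and the high blood class, was 1.96 (SE 0.66, adjusted p = 0.0224) and was lost without PLV replicate 2 (1.71, adjusted p = 0.111).

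Notch2 had the opposite endothelial pattern. Lymphatic endothelial-like cells had 52.9, 32.2 and 33.8 CPM and blood endothelial-like cells 4.54, 6.31 and 6.35 CPM. The lymphatic sums all lay above the blood sums, with a blood minus lymphatic log2 fold change of -2.74 (SE 0.40, adjusted p = 2.88e-05). Of the 4 vessel classes PLV muscle-like cells had the highest Notch2 levels, at 74.7 and 76.6 CPM, with 32.1 CPM in the mixed library. The endothelial minus mural difference of -1.11 (SE 0.33, adjusted p = 0.0108) was lost without PLV replicate 1 (-0.86, adjusted p = 0.162) and without PLV replicate 2 (-1.0, adjusted p = 0.0531). B cells of PLV replicate 1 had 302 CPM of Notch2, a receptor known from B cell maturation, from 29 UMIs in 48 cells.

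Notch3, like Notch2, was called higher in mural cells, and by more. Pericyte-like cells had 1426, 1467 and 758 CPM and muscle-like cells 1037, 847 and 343 CPM, while lymphatic endothelial-like cells had 33.3, 0 and 0 CPM and blood endothelial-like cells 194, 83.6 and 122 CPM. Every mural sum lay above every endothelial sum, with an endothelial minus mural log2 fold change of -4.43 (SE 0.39, adjusted p = 1.26e-08). Blood exceeded lymphatic endothelial-like cells by 3.49 (SE 0.58, adjusted p = 0.000117).

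The Notch3 UMIs of endothelial-like cells lay in cells that also held mural RNA. In blood endothelial-like cells with no UMI of any muscle or pericyte marker (90, 11 and 54 cells) there were 0 Notch3 UMIs, which allows up to 12.7, 76.5 and 20.7 CPM. With more than 1 and up to 10 marker UMIs per 1000 the level was 264, 152 and 202 CPM, and the 17 cells of PLV replicate 1 above 10 per 1000 had 882 CPM. Notch1 stood at 371, 179 and 165 CPM without a mural marker UMI and at 264, 238 and 147 CPM above 1 and up to 10 per 1000. It was thus lower in the latter cells of PLV replicate 1 and the mixed library and higher in PLV replicate 2. Blood endothelial-like cells without a mural marker UMI were shallow, with a median of 1991, 2398 and 1290.5 UMIs. The medians of the whole class were 3758, 8216 and 7443. Of the 76 Notch3 UMIs of lymphatic endothelial-like cells in PLV replicate 1, 74 came from 7 cells above 10 mural marker UMIs per 1000. Blood endothelial-like cells carried 0.153, 0.156 and 0.212 Notch3 UMIs per UMI of the pericyte gene Rgs5. Pericyte-like cells carried 0.219, 0.220 and 0.224, and muscle-like cells 2.29 to 3.15. In lymphatic endothelial-like cells of PLV replicate 1 the value was 3.8, from 20 Rgs5 UMIs. The part of mural RNA in the Notch3 difference between blood and lymphatic endothelial-like cells was not tested.

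**Figure D2:**
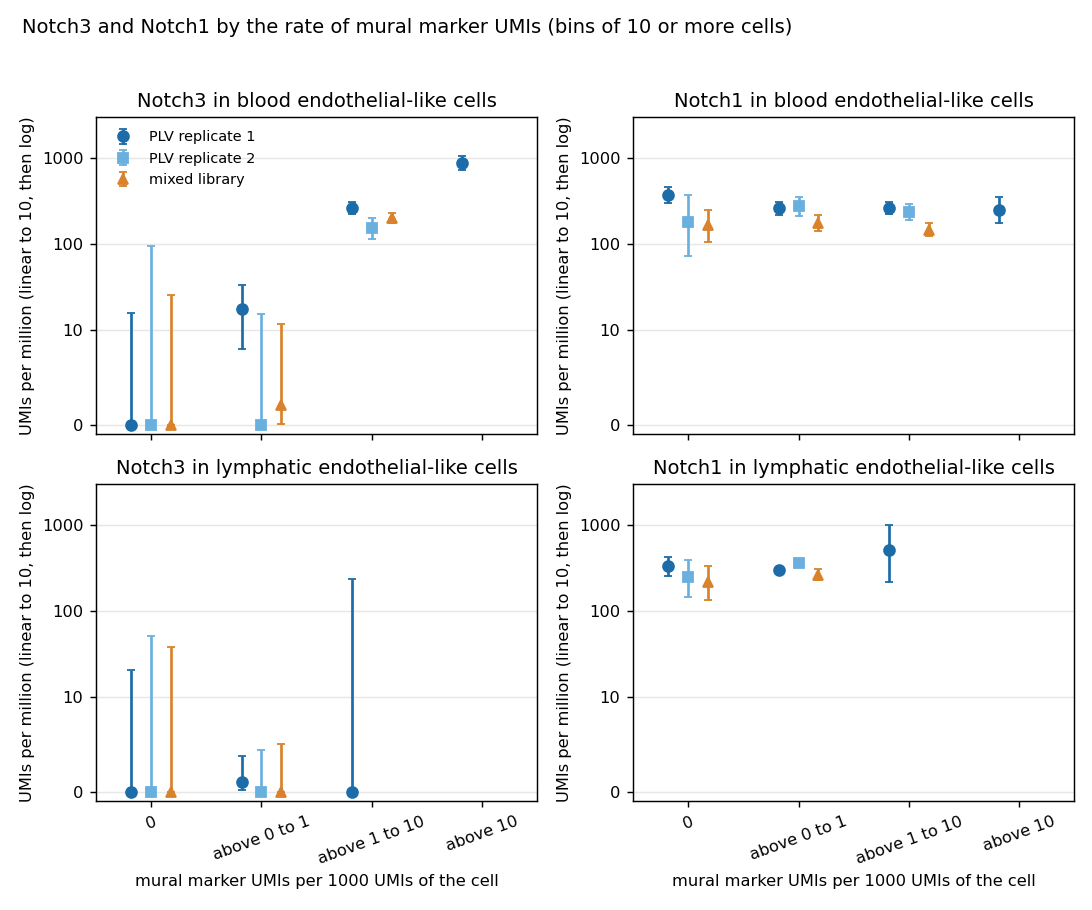
Level of Notch3 and of Notch1 (CPM, linear to 10 and logarithmic above) in endothelial-like cells grouped by their mural marker UMIs per 1000 UMIs, with 1 point per library, its 95% Poisson interval and only groups of 10 or more cells. Notch3 is at 0 in cells without a mural marker UMI and reaches 882 CPM above 10 per 1000, while Notch1 in blood endothelial-like cells stays between 147 and 371 CPM.

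When endothelial-like cells above 1 mural marker UMI per 1000, and mural cells above 1 endothelial marker UMI per 1000, were left out, Notch3 in blood endothelial-like cells stood at 11.9, 0 and 1.59 CPM and Heyl at 0 in all 3 libraries. This limit was chosen with the values in view. It left 173, 39 and 108 blood endothelial-like cells but 44, 1 and 3 pericyte-like cells, so only PLV replicate 1 then gave a pericyte-like sum. Notch4, Hey1, Nrarp, Jag1 and Notch2 still passed between blood and lymphatic endothelial-like cells. Notch3 passed as well (adjusted p = 0.03), but on 9, 0 and 1 UMIs in blood against 2, 0 and 0 UMIs in lymphatic endothelial-like cells, with no UMI on either side in PLV replicate 2. Heyl no longer differed (0.17, adjusted p = 1.00), and Hey2 passed (5.45, adjusted p = 0.0474) on 9 UMIs of PLV replicate 1, with none in the others. In the endothelial minus mural comparison of these cells the log2 fold changes of Notch2 (-2.09, adjusted p = 0.0641) and Notch4 (4.72, adjusted p = 0.0931) were farther from 0 than in all cells but did not pass. That of Nrarp was near 0 (-0.12, adjusted p = 0.949), while Notch1, Dll4, Notch3, Heyl, Hey2 and Jag1 did.

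**Figure D3:**
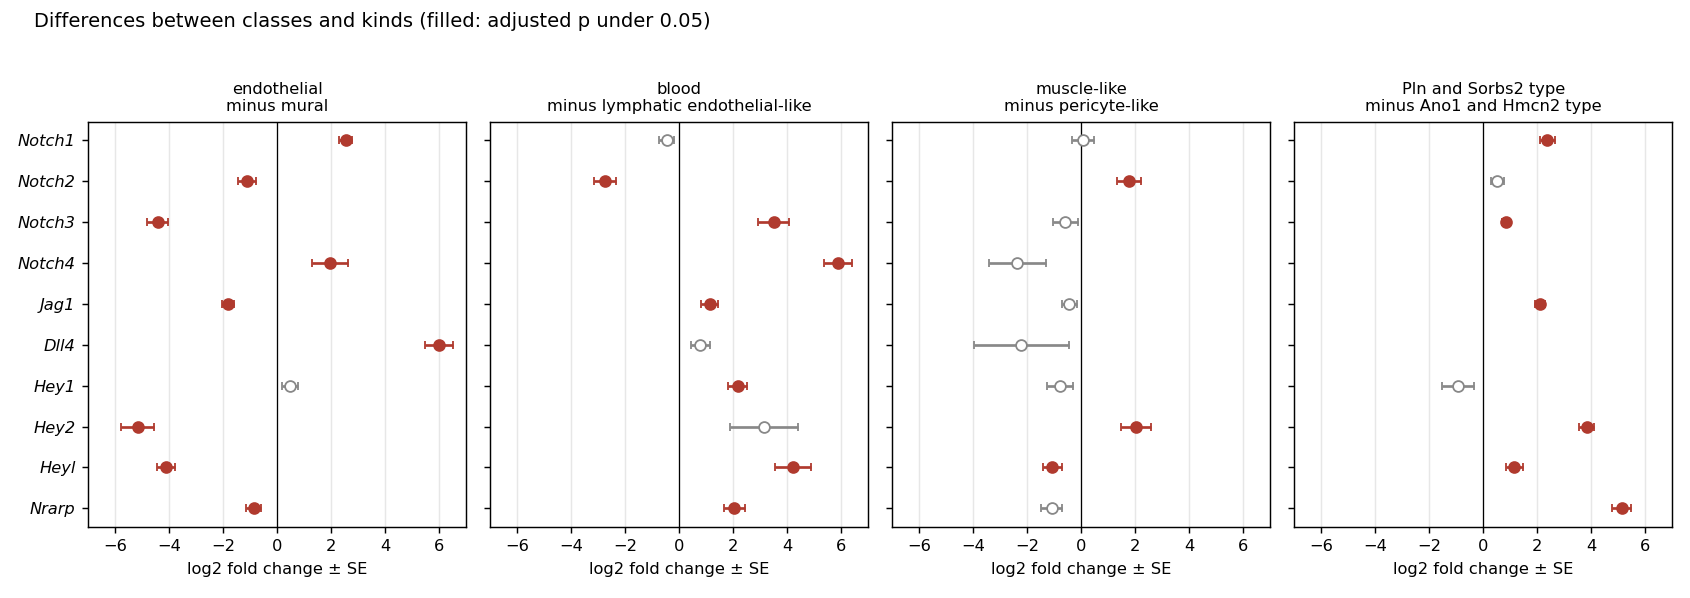
Log2 fold change with its standard error for each gene in 4 comparisons, from edgeR fits on sums per library, where filled points have an adjusted p under 0.05 and untested genes are absent. Dll4 is the gene farthest to the endothelial side (5.99) and Hey2 the farthest to the mural side (-5.17), and in the Pln and Sorbs2 type 7 points lie to the right, 6 of them filled.

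Of the ligands, Dll4 was higher in endothelium and Jag1 in mural cells. Dll4, known from sprouting tip cells and arteries, had 65.2, 52.6 and 42.2 CPM in lymphatic and 140.0, 142 and 27.9 CPM in blood endothelial-like cells. Muscle-like cells had 2 Dll4 UMIs over all libraries and pericyte-like cells 2, so every endothelial sum was higher (log2 fold change 5.99, SE 0.51, adjusted p = 2.6e-08). The pooled lymphatic endothelial-like level was 158 times that of muscle-like cells (95% interval 43.2 to 1310). Between blood and lymphatic endothelial-like cells Dll4 differed by 0.78 (SE 0.34, adjusted p = 0.134). The PLV libraries both had more Dll4 in blood endothelial-like cells and the mixed library less, and without the mixed library the difference passed (1.26, adjusted p = 0.000184).

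Jag1 had UMIs in all 4 classes. Pericyte-like cells had 324, 220.0 and 188 CPM, muscle-like cells 277, 191 and 66.3 CPM, blood endothelial-like cells 158, 52.0 and 46.3 CPM and lymphatic endothelial-like cells 43.3, 46.2 and 26.6 CPM. Within each library the mural sums exceeded the endothelial sums, although ranges over libraries overlapped, with an endothelial minus mural log2 fold change of -1.82 (SE 0.21, adjusted p = 7.64e-07). The blood minus lymphatic difference of 1.12 (SE 0.31, adjusted p = 0.0124) was lost without PLV replicate 1 (0.56, adjusted p = 0.459). The blood endothelial-like class was not made up alike in the PLV libraries, as given below.

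The targets Hey1, Hey2 and Heyl encode related transcriptional repressors. Hey1 was higher in blood than in lymphatic endothelium. It had 62.9, 23.7 and 26.0 CPM in blood and 9.19, 10.7 and 6.04 CPM in lymphatic endothelial-like cells, with no overlap (log2 fold change 2.16, SE 0.36, adjusted p = 0.000127). Without PLV replicate 1 this difference was 1.58 (adjusted p = 0.0828). Muscle-like cells had 13.1, 7.53 and 6.92 CPM of Hey1 and pericyte-like cells 29.4, 0 and 15.8 CPM from 16 UMIs, and the endothelial minus mural difference of 0.48 (SE 0.30, adjusted p = 0.229) did not pass.

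Hey2 was higher in the muscle-like class as a whole than in the other classes. That class averages kinds of cluster, described below, in unlike shares. The Ano1 and Hmcn2 type alone had 15.3, 12.4 and 11.4 CPM. This lay below the pericyte-like sums of PLV replicate 1 and the mixed library. Muscle-like cells had 156, 141 and 46.0 CPM, from 572 UMIs, and pericyte-like cells 41.2, 0 and 29.0 CPM from 25 UMIs. Lymphatic endothelial-like cells had 0.875, 0 and 0 CPM and blood endothelial-like cells 10.4, 0 and 1.27 CPM. The endothelial minus mural log2 fold change was -5.17 (SE 0.62, adjusted p = 9.38e-07), although the empty pericyte-like sum of PLV replicate 2 overlaps the endothelial sums. Between the endothelial classes Hey2 rested on 18 and 2 UMIs, a ratio of 9.70 (95% interval 2.32 to 86.2), and the test did not pass (adjusted p = 0.0867). It passed without the mixed library (3.29, adjusted p = 0.02), with the sums of the 4 vessel classes only (3.26, adjusted p = 0.0442) and with no filter on low counts (adjusted p = 0.000716).

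The promoter of Hey2 was the only one among the 8 genes found in the RefSeq promoter table (GRCm38.p6, without Hey1 and Heyl) that held the core sequence TGGGAA known to be bound by RBPJ, searched on both strands from 250 bases before to 50 bases after the start. It is shown with that of Nrarp, the other target found, because these genes separate the kinds of muscle-like cluster most strongly below. Both Hey2 matches were to the longer GTGGGAA, at -207 on the opposite strand and at -4 on the gene's strand. Of all 32544 promoter windows of this length 25.4% held TGGGAA and 6.39% held GTGGGAA, and the matches are a description of letters, not of binding. Each sequence runs 5' to 3' on the gene's strand from 250 bases before to 10 bases after the start, with GTGGGAA or its reverse complement in capitals. The Hey2 window is chr10:30842774-30843033 on the minus strand and the Nrarp window chr2:25180508-25180767 on the plus strand.
Hey2: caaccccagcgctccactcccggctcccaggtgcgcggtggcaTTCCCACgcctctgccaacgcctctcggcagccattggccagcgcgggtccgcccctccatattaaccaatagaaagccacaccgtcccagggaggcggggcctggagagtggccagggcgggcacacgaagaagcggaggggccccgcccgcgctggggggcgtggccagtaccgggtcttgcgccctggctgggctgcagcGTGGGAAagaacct
Nrarp: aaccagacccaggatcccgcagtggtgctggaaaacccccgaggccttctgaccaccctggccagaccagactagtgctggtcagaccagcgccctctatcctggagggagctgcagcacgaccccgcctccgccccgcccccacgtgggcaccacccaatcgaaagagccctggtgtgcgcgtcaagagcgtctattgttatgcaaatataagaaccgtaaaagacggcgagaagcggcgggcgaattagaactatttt

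Heyl, like Notch3, was higher in mural cells. Pericyte-like cells had 76.5, 45.8 and 52.8 CPM, muscle-like cells 35.6, 35.2 and 13.4 CPM, blood endothelial-like cells 14.3, 7.88 and 6.35 CPM and lymphatic endothelial-like cells 0.875, 0 and 0 CPM. The endothelial minus mural log2 fold change was -4.12 (SE 0.35, adjusted p = 7.64e-09). Blood and lymphatic endothelial-like cells did not overlap (37 and 2 UMIs, a ratio of 19.9 with a 95% interval of 5.14 to 171, adjusted p = 7.36e-05), but as given above no Heyl UMI was found in blood endothelial-like cells with at most 1 mural marker UMI per 1000.

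Nrarp was lowest in lymphatic endothelial-like cells, at 18.4, 29.0 and 13.3 CPM. Blood endothelial-like cells had 90.1, 88.3 and 55.9 CPM, all above the lymphatic sums (log2 fold change 2.03, SE 0.39, adjusted p = 0.000718). Pericyte-like cells had 99.99, 101 and 114 CPM, while muscle-like cells ranged from 16.7 to 93.6 CPM. The endothelial minus mural difference of -0.87 (SE 0.28, adjusted p = 0.018) was lost without PLV replicate 1 (-0.48, adjusted p = 0.200).

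Within the blood endothelium the pathway was uneven between clusters. The following levels describe clusters and carry no test. In PLV replicate 1, a cluster of 76 cells led by Sema3g, Gja5 and Sox17, genes known from arteries, had 252 CPM of Dll4 (95% Poisson interval 204 to 309), 161 of Hey1 (123 to 207), 424 of Jag1 (360 to 495) and 185 of Notch4 (144 to 234). A cluster of 122 cells led by the capillary genes Gpihbp1 and Cd36 had 150.0 CPM of Dll4, 50.9 of Hey1, 66.5 of Jag1 and 125 of Notch4. A cluster of 98 cells led by Selp, a gene of venules, had 34.5 CPM of Dll4, 2.16 of Hey1, 84.1 of Jag1 and 8.63 of Notch4. Dll4, Hey1 and Notch4 had the same order over these clusters, whereas Jag1 was high in the first alone. Notch1 varied less, at 333, 275 and 240 CPM. The arterial gene-led cluster also carried 2785 CPM of muscle and 2082 CPM of pericyte markers, and the part of this RNA in its Jag1 level was not tested.

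Clusters of the mixed library also differed. In the mixed library the cluster led by Rbp7, Cxcl12 and Gpihbp1 (100 cells) had 44.9 CPM of Dll4, 48.6 of Hey1 and 65.6 of Notch4. The cluster led by Aqp1, Ackr1 and Selp (41 cells) had 5.88, 1.96 and 15.7 CPM, and the cluster led by Cytl1 and Vwf (33 cells) had 16.6 CPM of Dll4 and no UMI of Hey1 or Notch4 (up to 12.4 CPM for a count of 0). In PLV replicate 2 the blood endothelial-like cells formed 1 cluster, and a further 16 cells led by Cytl1, Gkn3 and Igf2, with Gja5, Sema3g and Sox17 also among their leading genes, stayed unnamed. Those 16 cells had 477 CPM of Jag1 (246 to 833) and 199 of Dll4 (64.5 to 464) and were outside every test. The blood endothelial-like class of PLV replicate 2 thus left them out, while that of PLV replicate 1 held its arterial gene-led cluster. The part of this in the differences between the PLV libraries was not tested.

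**Figure D4:**
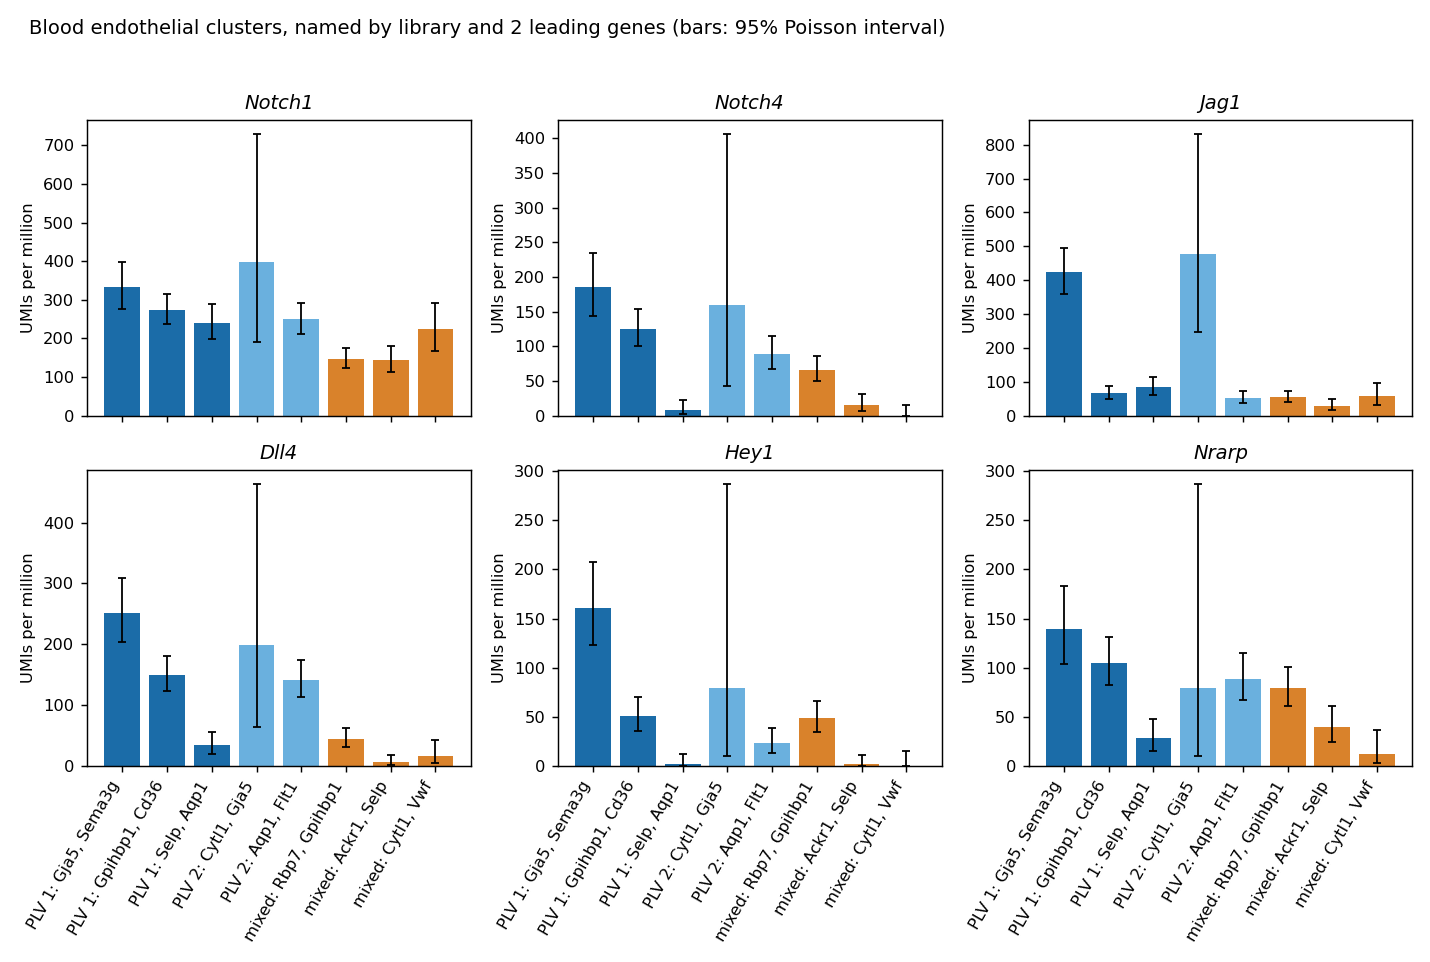
Level of 6 genes (CPM, axis from 0) in the blood endothelial-like clusters and in the unnamed Cytl1 and Gja5 cluster of PLV replicate 2, with 95% Poisson intervals and colours for libraries. Hey1 reaches 161 CPM in the Gja5 and Sema3g cluster and is at most 2.16 CPM in the clusters with Selp among their leading genes, while Notch1 is present in all.

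Muscle-like and pericyte-like cells differed in 3 of the 10 genes, against 11.3% of all genes tested (6.23% higher and 5.04% lower in muscle-like cells). Notch2 was higher in muscle-like cells, with 26.5, 18.3 and 13.2 CPM in pericyte-like cells and no overlap (log2 fold change 1.76, SE 0.44, adjusted p = 0.0108). Hey2 was higher in the muscle-like class as a whole (2.03, SE 0.56, adjusted p = 0.0207) and Heyl in pericyte-like cells (-1.07, SE 0.34, adjusted p = 0.0466). The higher Nrarp of pericyte-like cells had the same sign in every library and did not pass (-1.09, SE 0.39, adjusted p = 0.088), and neither did Notch3 (-0.59, SE 0.45, adjusted p = 0.496) or Jag1 (-0.44, SE 0.29, adjusted p = 0.411). These calls changed with the libraries used and with other settings. Without the library block Notch2 (adjusted p = 0.0541), Hey2 (adjusted p = 0.0604) and Heyl (adjusted p = 0.237) were lost, and with DESeq2 Hey2 (3.11, adjusted p = 0.268) and Heyl (adjusted p = 0.0502) were. Without PLV replicate 1 Notch2 (1.77, adjusted p = 0.0919), Hey2 (1.90, adjusted p = 0.134) and Heyl (-1.20, adjusted p = 0.293) were lost and Nrarp passed (-2.05, adjusted p = 0.00314). Without PLV replicate 2 none of the 10 passed (Notch2 1.61, adjusted p = 0.0931, Hey2 1.56, adjusted p = 0.195, Heyl -1.31, adjusted p = 0.0743), and without the mixed library Heyl was lost (-0.72, adjusted p = 0.316). With the cells of mixed compartment left out only 1 pericyte-like sum remained, so that fit says nothing about how stable these calls are. Its log2 fold changes were 1.09 for Notch2, 2.47 for Hey2 and -1.40 for Heyl.

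The muscle-like cells formed clusters of 3 kinds, named by the gene pairs that set them apart, and the Notch genes were kept out of the clustering. The Ano1 and Hmcn2 type (140, 56 and 199 cells) and the Pln and Sorbs2 type (287, 57 and 43 cells) were present in all libraries, and the P2rx1 and Col12a1 type (74 cells) in the mixed library only. Between the Pln and Sorbs2 type and the Ano1 and Hmcn2 type, 6 of the 8 genes that could be tested were called higher in the former (Nrarp, Hey2, Notch1, Jag1, Heyl and Notch3) and 0 lower, against 29.6% of the 8623 genes tested (14.5% in this direction). Dll4 and Notch4 had too few UMIs in muscle-like cells to be tested. Fibroblast markers differed between these kinds as well. They stood at 380.5, 273.8 and 1849 CPM in the Pln and Sorbs2 type and at 2630, 2228 and 4041 CPM in the Ano1 and Hmcn2 type. The part of this RNA in the Notch gene differences was not tested.

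Nrarp separated the kinds most. The Pln and Sorbs2 type had 137, 61.1 and 112 CPM and the Ano1 and Hmcn2 type 2.78, 6.22 and 3.03 CPM, from 8 UMIs in all. The kinds did not overlap, the log2 fold change was 5.12 (SE 0.36, adjusted p = 3.84e-16) and the pooled ratio 34.8 (95% interval 17.4 to 81.4). Hey2 stood at 224, 228 and 96.1 CPM against 15.3, 12.4 and 11.4 CPM, again without overlap (3.82, SE 0.28, adjusted p = 1.54e-15).

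The receptors and Jag1 differed by less. Notch1 had 104, 94.8 and 38.5 CPM in the Pln and Sorbs2 type and 23.6, 21.8 and 6.82 CPM in the Ano1 and Hmcn2 type, without overlap (2.37, SE 0.28, adjusted p = 1.02e-09). Jag1 had 355, 276 and 208 CPM against 114, 65.3 and 44.7 CPM, without overlap (2.09, SE 0.18, adjusted p = 4.18e-13). Notch3 was abundant in both kinds, at 1186, 1009 and 548 CPM against 727, 609 and 359 CPM. It was higher in the Pln and Sorbs2 type within each library (0.84, SE 0.15, adjusted p = 1.94e-05), although the mixed value of that kind lay below both PLV values of the other. Without the library block the Notch3 difference did not pass (0.86, adjusted p = 0.0572). Heyl had 42.6, 46.3 and 12.8 CPM against 20.9, 18.7 and 12.1 CPM (1.15, SE 0.33, adjusted p = 0.00469) and was lost without PLV replicate 1 (1.11, adjusted p = 0.136), with DESeq2 (1.12, adjusted p = 0.117) and at Leiden resolution 0.5 (1.07, adjusted p = 0.0548). Notch2 (0.52, SE 0.23, adjusted p = 0.0889) and Hey1 (-0.93, SE 0.60, adjusted p = 0.27) did not pass, and Hey1 was lower in the Pln and Sorbs2 type in every library, at 8.65, 4.21 and 9.61 CPM against 22.2, 12.4 and 10.6 CPM.

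**Figure D5:**
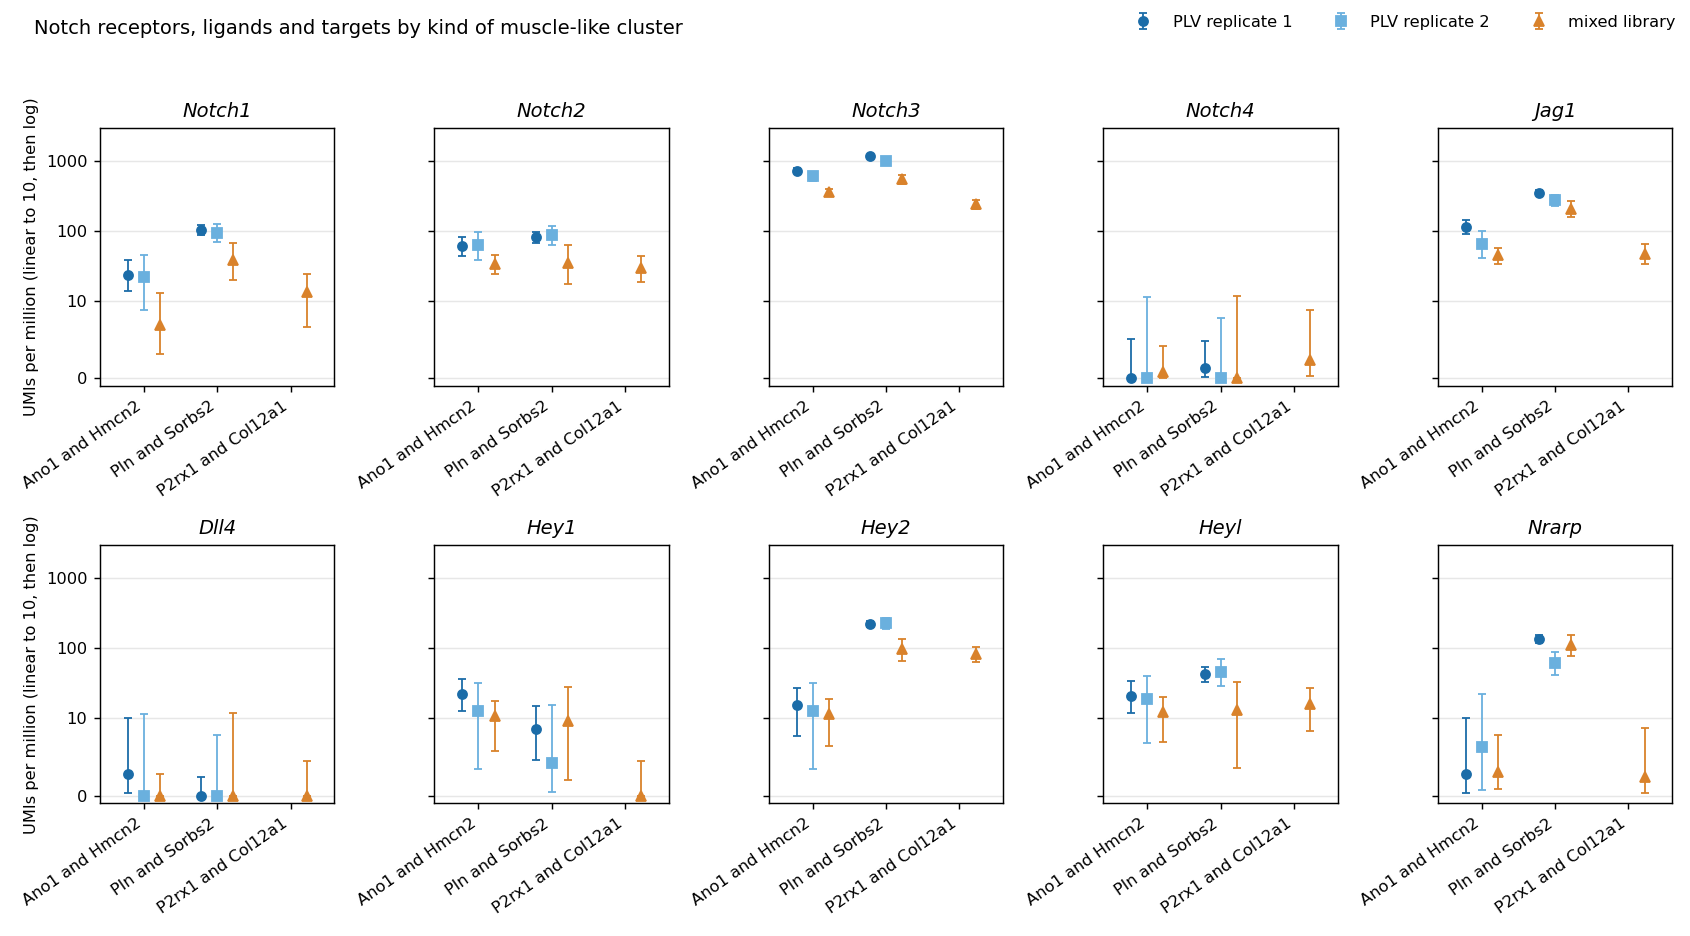
Summed level of each gene (CPM, linear to 10 and logarithmic above) in the 3 kinds of muscle-like cluster, with 1 point per library and its 95% Poisson interval. Nrarp lies between 61.1 and 137 CPM in the Pln and Sorbs2 type and at or under 6.22 CPM in the other kinds, and Hey2 is low in the Ano1 and Hmcn2 type alone.

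The P2rx1 and Col12a1 type had Hey2 but little Nrarp. Its Hey2 level of 82.3 CPM was above the Ano1 and Hmcn2 type (3.31, SE 0.40, adjusted p = 3.46e-08), the only one of 8 tested genes to differ there, against 5.94% of all genes tested. Its Nrarp level of 2.42 CPM, from 2 UMIs, was below the Pln and Sorbs2 type of the same library by a ratio of 46.3 (95% interval 11.9 to 398, adjusted p = 4.32e-09). Jag1 at 47.2 CPM (-2.02, SE 0.32, adjusted p = 3.36e-06) and Notch3 at 240 CPM (-1.20, SE 0.25, adjusted p = 0.000428) were also below the Pln and Sorbs2 type, so 3 of 8 genes differed there, against 12.8% of all genes. Hey1 had 0 UMIs, which allows up to 3.63 CPM, and its difference from the Ano1 and Hmcn2 type did not pass (adjusted p = 0.0526) but did without PLV replicate 2 (adjusted p = 0.0406). This kind came from 1 library, so it may reflect that library, and its tests assume that its lone sum varies like those of the other kinds.

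Between the mixed and the PLV libraries, 7 of the 8 tested genes were lower in muscle-like cells of the mixed library, against 17.3% of the 10819 genes tested (8.2% in this direction). The differences ran from -2.25 (SE 0.31, adjusted p = 7.73e-11) for Notch1 to -1.0 (SE 0.27, adjusted p = 0.00321) for Notch2, with -1.87 for Nrarp, -1.60 for Jag1, -1.46 for Hey2, -1.23 for Notch3 and -1.16 for Heyl. DESeq2 called 4 of the 8, without Nrarp (adjusted p = 0.164), Notch2 (adjusted p = 0.593) and Heyl (adjusted p = 0.792), and Heyl was also lost at Leiden resolution 2 (-0.77, adjusted p = 0.119). The makeup of the class moved with them, since the Pln and Sorbs2 type was 287 of 427 and 57 of 113 muscle-like cells in the PLV libraries and 43 of 316 in the mixed library. Within the Ano1 and Hmcn2 type 0 of 7 tested genes differed (Notch3 -0.62, SE 0.28, adjusted p = 0.188), against 5.47% of all genes. Within the Pln and Sorbs2 type 0 of 7 differed (Notch3 -0.76, SE 0.30, adjusted p = 0.164), against 3.17% of all genes. At Leiden resolution 0.5, however, 4 of 7 were called there, Notch3 among them (-1.14, adjusted p = 0.00315). The median log2 fold change of the tested members was -0.60 in the Ano1 and Hmcn2 type and -0.98 in the Pln and Sorbs2 type, beside -0.02 over all genes in each. At an unadjusted p under 0.05 there were 3 and 5 of the 7 genes, and DESeq2 called 0 and 0. Shares of all genes at the unadjusted threshold, by DESeq2 and at Leiden resolution 0.5 are not given here. These counts therefore cannot be set against a background. Fibroblast markers also differed between the muscle-like sums, at 1109, 1063 and 3976 CPM. The parts of the makeup and of fibroblast RNA in the class difference were not tested beyond these values.

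In blood endothelial-like cells 2 of 9 tested genes were lower in the mixed library, against 2.99% of all genes (1.36% in this direction). Dll4 differed by -2.19 (SE 0.32, adjusted p = 1.12e-05) and Notch4 by -1.16 (SE 0.30, adjusted p = 0.0186). The Notch4 call was lost with at least 1000 UMIs a cell and with DESeq2, although the log2 fold changes there were -1.16 and -1.14. Of the arterial list 2 of 8 genes were lower and 0 higher, and of the venous list 2 of 7 were higher and 0 lower. The arterial gene Gja5 was lower (121, 26.8 and 12.7 CPM, -2.52, adjusted p = 0.000356) and the venular gene Ackr1 higher (97.2, 121 and 231 CPM, 1.24, adjusted p = 0.00514), and the part of the cluster makeup in the Dll4 and Notch4 differences was not tested. In pericyte-like cells 0 of 6 and in lymphatic endothelial-like cells 0 of 7 tested genes differed, against 1.27% and 0.622% of all genes, with 0 and 1 at an unadjusted p under 0.05 and 0 and 0 by DESeq2. These fits have 1 residual degree of freedom and assume that the lone mixed sample varies like the PLV samples. Whether class differences depended on the kind of library was tested as an interaction, which 0 of 10 genes passed for blood against lymphatic endothelial-like cells (0.114% of all genes) and 0 of 10 for muscle-like against pericyte-like cells (0.0571%). At an unadjusted p under 0.05 there were 2 and 2, and DESeq2 called 0 and 0. Shares of all genes at the unadjusted threshold and by DESeq2 are not given here, so these counts lack a background. For Dll4 the difference was -1.88 (SE 0.48, adjusted p = 0.258) and for Nrarp, in the mural pair, -2.30 (SE 0.60, adjusted p = 0.266).

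Of the 40 other pathway genes, 37 could be tested between classes. Between endothelium and mural cells 14 were higher in endothelium, against 21.1% of all genes, and 6 in mural cells, against 20.6%, with a median log2 fold change of 0.17 beside 0.01 over all genes. Egfl7, which encodes a secreted endothelial modulator of Notch, led with 888 to 1236 CPM in endothelial sums and 3.77 to 39.6 CPM in mural sums (6.63, SE 0.21, adjusted p = 2.33e-14). Lfng, a glycosyltransferase that alters ligand choice, followed (4.68, SE 0.31), and Psen2 and Adam10 of the receptor-cleaving machinery were higher too (2.51 and 2.38). On the mural side were Dtx4 (-3.84), Neurl1b (-3.41), Maml3 (-1.72) and Dtx3 (-1.56).

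Blood and lymphatic endothelial-like cells differed in 6 of 37 pathway genes upward, against 11.7% of all genes, and in 7 downward, against 9.79%, with a median of -0.03 beside 0.01 over all genes. Dtx1, a Deltex ubiquitin ligase gene, had 312, 397 and 290 CPM in lymphatic endothelial-like cells against 0.648, 0 and 0 CPM in blood endothelial-like cells (adjusted p = 2.85e-09). Mfng, a Fringe glycosyltransferase gene, had the reverse pattern with 62.9, 37.8 and 44.4 CPM in blood and 1.75, 1.07 and 0 CPM in lymphatic endothelial-like cells (5.36, SE 0.50, adjusted p = 2.22e-06). The ligand gene Jag2 was also higher in blood (2.25, SE 0.33, adjusted p = 4.65e-05), as was Neurl1b (57.0, 50.5 and 29.8 against 0.875, 0 and 0 CPM, adjusted p = 2.73e-07). Hes1, a target gene, was higher in lymphatic endothelial-like cells (-1.47, SE 0.25, adjusted p = 0.000157), with 1448, 1075 and 1073 against 604, 372 and 336 CPM, opposite to Hey1 and Nrarp. Psen2 (-1.77) and Aph1b (-2.31), both of the gamma-secretase complex, lay on the lymphatic side as well.

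Of 37 pathway genes 0 were called higher in muscle-like than in pericyte-like cells, against 6.23% of all genes, and 4 were called lower, against 5.04%. The noncanonical ligand gene Dlk1 stood at 326, 238 and 317 CPM in pericyte-like against 0.45, 8.79 and 0 CPM in muscle-like cells (-7.30, SE 0.92, adjusted p = 7.49e-05), followed by Dtx3 (-1.53), Egfl7 (-2.27) and Dtx4 (-1.36). Endothelial RNA moved with Egfl7, since the pericyte-like sums held 4108 to 4959 CPM of blood endothelial markers and the muscle-like sums 222 to 377 CPM. The endothelial genes Sema3g (adjusted p = 0.00754) and Sox17 (adjusted p = 0.0144) were also called lower in muscle-like cells, from 9 and 7 UMIs in the pericyte-like cells of PLV replicate 1, and the part of this RNA in the Egfl7 difference was not tested. Between the main kinds of muscle-like cluster 5 of 31 tested pathway genes were higher and 5 lower in the Pln and Sorbs2 type, shares near those over all genes (14.5% in the higher direction, 29.6% in either). Hes1 was higher in it (1734, 1028 and 1275 against 548, 556 and 402 CPM, 1.59, SE 0.17, adjusted p = 9.98e-11), as were Efnb2 (3.52) and Adam17 (1.71), and Dtx4 was lower (0.665, 0 and 3.20 against 36.2, 49.7 and 47.7 CPM, -5.13, SE 0.57, adjusted p = 3.84e-10). From the arterial list Gja4, a connexin gene, had 134, 135 and 106 CPM in the Pln and Sorbs2 type against 1.39, 0 and 1.52 CPM (6.55, SE 0.40, adjusted p = 3.19e-18). Of the 4 arterial genes tested 2 were higher (Gja4 and Efnb2), 1 was lower (Unc5b, -3.55, SE 1.38, adjusted p = 0.0454) and 1 did not pass. From the venous list Ephb4 (-2.94), Vcam1 (-6.59), Flrt2 (-3.57) and Nr2f2 (-0.45) were lower in it, all 4 of the venous genes that could be tested. These lists were written for endothelium and are used here only as names.

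The genes whose levels ran most like each member over the 12 vessel sums (Pearson r of log2 of CPM plus 10, sums that share libraries and classes, given as a description) were Pln for Hey2 (0.992), Sept8 for Heyl (0.992), C1s1 for Notch3 (0.989) and AW112010 for Notch4 (0.995). Dll4 ran with Ppp1r16b (0.979) and Sox18 (0.975), Notch1 with Rac1 (0.967), Jag1 with Oaz2 (0.963), Notch2 with Setbp1 (0.944) and Nrarp with Ankrd44 (0.926). The least close was Hey1, whose nearest gene was Gja5 (0.884).

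For background, the lymphocytes of PLV replicate 1 (249882 UMIs) had 0 UMIs of Notch3, Notch4, Dll4, Hey1, Hey2 and Heyl, which allows up to 12.01 CPM. Droplets of the mixed library under 50 UMIs, which hold mostly free RNA, had 58.0 CPM of Notch3, 24.98 of Jag1 and 20.0 of Notch1 and at most 11.99 CPM of each other member. In the mixed library, levels at or below those of these droplets cannot be told from free RNA. Among the classes these were Notch1 in muscle-like cells, Notch2, Hey2 and Heyl in blood and Notch3, Hey2 and Heyl in lymphatic endothelial-like cells. Notch4 outside blood endothelial-like cells and Dll4 in mural cells were also among them. Among the muscle kinds they were Notch1 and Nrarp in the Ano1 and Hmcn2 and the P2rx1 and Col12a1 types. Hey2 in the Ano1 and Hmcn2 type and Hey1 in the P2rx1 and Col12a1 type were further cases. Of the cluster levels given above, they were Dll4 and Hey1 in the cluster led by Aqp1, Ackr1 and Selp. In the cluster led by Cytl1 and Vwf they were Hey1 and Notch4. Further levels of the mixed library lay above the droplet value but within its 95% Poisson interval. Among the classes these were Hey1, Jag1 and Nrarp in lymphatic endothelial-like cells and Hey1, Heyl and Nrarp in muscle-like cells. In pericyte-like cells they were Notch1 and Notch2. Hey1 and Heyl in the Ano1 and Hmcn2 and the Pln and Sorbs2 types were likewise within it. Lymphatic endothelial-like cells of the mixed library had 0 Notch3 UMIs. Red cell barcodes of the mixed library (958260 UMIs) had 0 UMIs of Notch3 and of Jag1 and 1 of Notch1. Those of PLV replicate 1 had 4.68 CPM of Notch3 and 4.68 of Jag1, and those of PLV replicate 2 had 0 UMIs of both.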

How the data were processed

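The deposited files hold whole-number UMI counts per gene and cell barcode, made by the authors with Cell Ranger on build GRCm38, per the submitters' processing notes. Seurat is also named there. The counts are not normalized. PLV matrices were deposited filtered and the mixed one with all barcodes. The 2 tag features of the mixed library were not used.

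Cells had at least 500 UMIs and 300 genes and at most 15% mitochondrial UMIs; barcodes above 20% haemoglobin UMIs or with 5 or more keratin UMIs, and predicted doublets (16 in all), were left out. Clusters were found per library by the Leiden method (scanpy 1.11.5 and leidenalg 0.10.2, resolution 1, 15 neighbours on 50 components of 2000 variable genes), without the Notch pathway genes, and clusters were named from marker lists. UMIs were summed per library and class (at least 20 cells) and tested with edgeR 4.0.16 quasi-likelihood tests (TMM, filterByExpr, library as a block, R 4.3.3), with Benjamini-Hochberg adjustment over all genes tested and a threshold of 0.05. Class fits also held the fibroblast-like and Schwann-like sums, and fits of muscle kinds also held the pericyte-like sums. The test step was run on simulated data with 200 genes changed 4-fold. It recovered 100% of them for blood against lymphatic endothelial-like cells and 97.5% for muscle-like against pericyte-like cells. Recovery was 98% between the Pln and Sorbs2 and the Ano1 and Hmcn2 types. For mixed minus PLV in blood endothelial-like cells it was 69.5%. False calls were 6.1%, 4.4%, 2.5% and 6.7% in this order. The changed genes were drawn from those with more than 5 UMIs expected in the smallest sum. All simulated sums shared 1 profile and 1 dispersion, without a library effect. The recovery therefore does not cover genes with few UMIs in a sum. Intervals of 95% are exact Poisson, or exact binomial for ratios, and cover counting error only, as does the limit of 3 counts for a count of 0.

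All 10 genes are named, with at most 4 further genes per list, direction and comparison by smallest adjusted p, and the genes of highest Pearson r with each. The members and lists were chosen with earlier results of these data known. Alternatives covered cell filters, doublets, clustering, DESeq2 1.42.0, RLE size factors, low counts, the block, the 4 vessel classes alone and each library left out. Chosen after seeing the data were keratin barcodes, Notch genes in the clustering, and cells with marker UMIs of the other compartment.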

Additional observations from a re-analysis of the deposited data

How the results depend on the processing

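Counts of Notch genes called stayed within 1.5 times the reported count in most alternatives. Shares of all genes called in the alternatives are not given here. Between muscle-like and pericyte-like cells the count of 3 became 1 with DESeq2, 0 with cells holding marker UMIs of the other compartment left out (1 pericyte-like sum), and 0 to 2 with a library left out. The library served as the block, and only the PLV libraries carry numbers in the labels. Without the block this count was 0, Jag1 and Notch2 changed sign between the P2rx1 and Col12a1 and the Ano1 and Hmcn2 types (-0.29 and -0.43, both not called), and the calls of Jag1 between the endothelial classes (1.15, adjusted p = 0.111) and of Notch3 between the Pln and Sorbs2 and the Ano1 and Hmcn2 types (0.86, adjusted p = 0.0572) were lost. For P2rx1 and Col12a1 minus Ano1 and Hmcn2 type, 1 gene became 2 with Notch genes in the clustering, with cells of mixed compartment left out and with no filter on low counts, and 1 to 2 with a library left out. With a library left out, counts were 7 to 9 for endothelial against mural, 5 to 9 for blood against lymphatic, 5 to 6 for Pln and Sorbs2 minus Ano1 and Hmcn2, and 3 for P2rx1 and Col12a1 minus Pln and Sorbs2. Mixed minus PLV counts became 4 by DESeq2 in muscle-like cells (from 7), 1 with no filter in lymphatic endothelial-like cells (from 0), and 1 with at least 1000 UMIs and 1 by DESeq2 in blood endothelial-like cells (from 2). In the Pln and Sorbs2 type 0 became 1 with at most 10% mitochondrial UMIs, 4 at Leiden resolution 0.5, 1 at resolution 2 and 1 with cells of mixed compartment left out. With no filter the interactions called 2 and 1 genes. In each case the cause was not tested.

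Between muscle-like and pericyte-like cells Heyl was also lost with at least 1000 UMIs (adjusted p = 0.088), at most 10% mitochondrial UMIs (0.0556), doublets kept (0.134), Leiden resolution 0.5 (0.053) and DESeq2 (0.0502). Nrarp passed there at Leiden resolution 2 (0.0329), with Notch genes in the clustering (0.0358) and with no filter on low counts (0.00457). Nrarp between endothelium and mural cells was lost at Leiden resolution 2 (0.0589), and Notch2 between the Pln and Sorbs2 and the Ano1 and Hmcn2 types passed there (0.0329). Dll4 between the endothelial classes passed with no filter (0.0179) and with the 4 vessel classes only (0.0424). Notch1 between the P2rx1 and Col12a1 and the Pln and Sorbs2 types passed with doublets kept (0.0418), with cells of mixed compartment left out (0.0398) and without the block (0.0165). Jag1 in blood endothelial-like cells, mixed minus PLV, passed in 4 alternatives (adjusted p 0.0139 to 0.0458).

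Sign changes of uncalled muscle minus pericyte differences were, for Notch1, -0.16 at Leiden resolution 2, -0.021 with DESeq2, -0.23 without PLV replicate 1 and -0.019 without PLV replicate 2 (0.30 without the mixed library). With cells of mixed compartment left out they were -0.10 for Notch1, 0.054 for Nrarp, 0.33 for Dll4, 0.14 for Jag1, 0.32 for Hey1, 0.29 for Notch3 and 3.24 for Notch4, and -0.12 for Notch2 between the P2rx1 and Col12a1 and the Ano1 and Hmcn2 types. Leaving out a library was not possible for mixed minus PLV, since no residual degree of freedom remained. Pericyte-like sums of PLV replicate 2 hold 24 cells, which limits low genes there.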
